A study of Mus musculus with 6 samples.

Results

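*Per2*, *Nr4a1* and *Crem* are genes of the circadian clock and of transcription driven by cAMP and neuronal activity, and their mRNAs were measured in neocortex of adult male *Khsrp*-/- and wild type mice. They are covered by 5 of the 1803 array probes that could be given a gene symbol, with 1 probe for *Per2*, 1 for *Nr4a1* and 3 for *Crem*, and they make up 3 of 1727 named genes. Symbols came from the study's supplementary expression table, which lists genes selected because they differed between the genotypes, so the members were chosen on the comparison described here. Their differences between genotypes are therefore given as a description with no test, and the same holds for the other named genes.

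*Khsrp* encodes the KH-type splicing regulatory protein, a protein that binds RNA and promotes decay of transcripts that carry AU-rich elements, and the arrays were made to find mRNAs whose level differs when it is absent. The *Khsrp*-/- mice carried a deletion of *Khsrp* exons beginning with the first exon, in all tissues and from conception, on a background bred to C57Bl/6, and the wild type mice were littermates. Each genotype had 3 samples, with 1 array of 1 colour for each sample. The labels name the tissue cortex, and the headers of the supplementary table name it PFC. No probe could be given the symbol *Khsrp*, so the genotypes rest on the labels. RNA came from whole tissue, in which fewer cells of a type and less RNA per cell cannot be told apart. The methods describe a reversed light cycle for the mice used in behaviour. There the paper also cites an earlier report that KHSRP targets PER2 and so interacts with the circadian rhythm. The time of day at which the array tissue was taken is not given in the sources used here.

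PER2 is a repressor of the molecular clock. The transcription factors CLOCK and BMAL1 drive the *Per* and *Cry* genes, whose products return to the nucleus and inhibit them, and *Per2* can also be induced through CREB, the factor that binds the cAMP response element (CRE). *Nr4a1* encodes an orphan nuclear receptor, NUR77, and is an immediate early gene that neurons switch on within minutes of activity through CREB and SRF. *Crem* encodes relatives of CREB made from one gene by alternative promoters and splicing. Some of its products activate CRE-driven genes, while others, among them the inducible early repressor ICER, occupy the same sites and shut transcription down, so that CREM closes a feedback loop on the pathway that induces it.

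The sequence before the *Nr4a1* start site is shown because the background given above links these genes to CREB or the CRE. That of its family member *Nr4a3* is shown because both mRNAs deviated together from array to array, as given below. Both sequences were taken from the RefSeq promoter table of build GRCm38.p6, which matched 11 of the 18 named genes of the lists described below. It held no entry for *Per2* or *Crem*, so the CRE was not examined for them. Each run covers the 250 bases before the start site on the + strand, at chr15:101266596-101266845 for *Nr4a1* and chr4:48045055-48045304 for *Nr4a3*, and capitals mark the CRE half-site TGACG or its reverse complement CGTCA.
Nr4a1: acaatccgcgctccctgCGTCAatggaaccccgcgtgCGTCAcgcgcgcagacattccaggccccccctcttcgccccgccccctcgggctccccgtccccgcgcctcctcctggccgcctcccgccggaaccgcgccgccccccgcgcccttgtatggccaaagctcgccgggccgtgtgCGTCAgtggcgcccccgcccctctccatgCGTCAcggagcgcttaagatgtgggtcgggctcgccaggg
Nr4a3: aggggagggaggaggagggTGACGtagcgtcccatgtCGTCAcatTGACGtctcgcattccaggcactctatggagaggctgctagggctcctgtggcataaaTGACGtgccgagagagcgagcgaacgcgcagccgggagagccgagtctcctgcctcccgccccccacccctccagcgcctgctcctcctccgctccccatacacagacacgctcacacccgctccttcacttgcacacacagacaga

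The *Nr4a1* sequence held 4 half-sites, with their leftmost bases 233, 213, 69 and 40 bases before the start, and all 4 read CGTCA on the strand shown. The *Nr4a3* sequence also held 4, at 231, 213, 205 and 147 bases before the start, in both orientations. Over all 32851 promoters of 300 bases in the table (250 before and 50 after the start), 20.8% held at least 1 half-site on either strand and 76, or 0.231%, held 4 or more. The full palindromic CRE, TGACGTCA, was in 1.79% of the promoters and in none of the 11 matched ones. The clock's E-box, CACGTG, was in 7.15% of all promoters and the related sequence CACGTT in 4.68%, and neither was in the windows of *Nr4a1* or *Nr4a3*. The NR4A response element AAAGGTCA was in 1.51% of all promoters and in none of the 11. Among the other matched genes, *Sik3* had 3 half-sites, *Btg1* and *Rgs4* had 2 each and *Camkk1*, *Crebzf* and *Rps6ka4* had 1 each. *Sik3* also had 1 E-box and *Rps6ka4* 1 CACGTT, each overlapping a half-site. A match describes these letters and does not show that a factor binds there.

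Signals are Agilent processed signals, intensities on a linear scale with the background subtracted. Levels are given on the log2 scale after subtraction of each array's 75th percentile, so that 0 is the 75th percentile of that array, and they are compared between arrays for 1 probe, never between probes. The 75th percentile itself was lower on *Khsrp*-/- arrays 2 and 3 (8.46 and 8.42) than on the other arrays (8.72 to 8.96). Without this scaling the median change over all probes was -0.29, against -0.0006 with it, and values in both forms are given where they differ in what they show. Of 60915 probes, 48438 passed the filter (well above background on 3 or more arrays) and entered the fit, all 5 member probes among them. The standard error of a difference is that of the fit, in which each probe's variance is drawn toward a value shared by all probes. It can thus be smaller or larger than a probe's own SDs would give. Arrays scanned at the same time were taken as sharing a slide, and only *Khsrp*-/- array 1 and wild type array 3 shared one across genotypes.

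The *Per2* probe gave scaled log2 levels of -3.22, -3.17 and -3.47 for *Khsrp*-/- replicates 1 to 3 and of -2.03, -1.82 and -1.87 for wild type replicates 1 to 3. All *Khsrp*-/- arrays lay below all wild type arrays, and the nearest arrays of the 2 genotypes were 1.14 apart. The means were -3.29 ± 0.16 (SD, n = 3) and -1.91 ± 0.11 (SD, n = 3), a difference of -1.38 with a standard error of 0.16, or 2.60-fold lower in *Khsrp*-/- neocortex. A change at least this far down was seen in 0.586% of the probes fitted. This difference was large beside the spread between arrays of a genotype. Selection of *Per2* on this contrast favours such a gap, so nothing is read from it.

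Before scaling, the *Per2* signals were 49.5, 39.0 and 30.9 in *Khsrp*-/- and 119, 140 and 116 in wild type mice. The ratio of the mean signals was 0.318, and the unscaled log2 difference of -1.67 was larger than the scaled one. On the shared slide the difference was -1.35, and between the remaining arrays it was -1.39. The *Per2* values were thus nearly the same within and across slides. Leaving out any single array kept the change between -1.44 and -1.29.

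The *Per2* signal was low in absolute terms. All 6 arrays were well above background by the scanner software, the signal was 1.63 to 10.03 times the local background, and the software's error of a spot ran from 10.3% to 14.3%. Negative control probes give another measure of background: on each array, 2 of 15 such probes, each with 20 spots, were clearly brighter than the remaining 13. *Per2* exceeded the brightest of them on all 6 arrays, by as little as 1.17-fold on *Khsrp*-/- array 3 and by 4.02-fold on wild type array 3. When background was corrected by normexp with an offset of 50 added to every signal, which compresses dim probes, the *Per2* difference was -0.61, in the same direction.

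The *Nr4a1* probe gave scaled levels of 1.41, 2.51 and 1.15 for *Khsrp*-/- replicates 1 to 3 and of 2.69, 2.10 and 2.70 for wild type replicates 1 to 3. *Khsrp*-/- arrays 1 and 3 lay below every wild type array, but *Khsrp*-/- array 2 lay above wild type array 2, so the genotypes overlapped. The means were 1.69 ± 0.72 (SD, n = 3) and 2.49 ± 0.34 (SD, n = 3), a difference of -0.81 with a standard error of 0.37, or 1.75-fold lower. The spread among *Khsrp*-/- arrays was nearly as large as this difference. A change at least this far down was seen in 3.38% of the probes fitted.

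The unscaled *Nr4a1* signals were 1225, 1999 and 761 in *Khsrp*-/- and 3129, 2127 and 2744 in wild type mice, and in this form the genotypes did not overlap. The unscaled log2 difference was -1.098 and the ratio of the mean signals 0.498. The lower part of the supplementary table held 266 entries whose ratios of mean signals, recomputed here, ran from 0.132 to 0.499. *Nr4a1* ranked 264th from the lowest and thus just inside, while *Per2* ranked 31st. On the shared slide *Nr4a1* differed by -1.29 and between the remaining arrays by -0.57. Without *Khsrp*-/- array 2 its change was -1.22, without *Khsrp*-/- array 3 it was -0.54, and with each other array left out it lay between these values. Technical error of the spot was small beside this spread, since the signal was 34.6 to 184 times the local background with a spot error of at most 10.01%.

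The 3 *Crem* probes are annotated to 3 different RefSeq transcripts of the gene and are called A, B and C here (ASMM10P000098, ASMM10P054780 and ASMM10P017576). Probe sequences and the exons they fall in were not analysed here, so the probes cannot be assigned to activator or repressor products. All 3 had higher mean scaled levels in *Khsrp*-/- mice, by 0.38, 1.09 and 2.36, and by 0.34, 0.63 and 0.66 with normexp, under which probes B and C were nearly equal.

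*Crem* probe A gave scaled levels of -1.71, -1.48 and -1.63 for *Khsrp*-/- replicates 1 to 3 and of -2.07, -1.92 and -1.97 for wild type replicates 1 to 3. The genotypes did not overlap in this form. The difference was 0.38 with a standard error of 0.15, or 1.30-fold higher, from means of -1.60 ± 0.12 and -1.99 ± 0.08 (SD, n = 3 each). This separation needed the scaling: the raw signals were 141, 126 and 111 in *Khsrp*-/- and 116, 131 and 108 in wild type mice, which overlapped, and the unscaled difference was 0.090. On the shared slide the scaled difference was 0.26, and between the remaining arrays 0.44. The signal was 5.25 to 8.19 times the local background, with a spot error of at most 10.5%.

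*Crem* probe B gave scaled levels of -3.05, -2.55 and -2.10 for *Khsrp*-/- replicates 1 to 3 and of -3.68, -3.77 and -3.53 for wild type replicates 1 to 3. The genotypes did not overlap, with or without scaling, and the *Khsrp*-/- arrays were spread more widely than the wild type ones. The difference was 1.09 with a standard error of 0.25, or 2.13-fold higher, from means of -2.57 ± 0.48 and -3.66 ± 0.12 (SD, n = 3 each). It was 0.48 on the shared slide and 1.40 between the remaining arrays. Signals of 55.6, 59.9 and 80.2 in *Khsrp*-/- mice stood against 37.9, 36.3 and 36.6 in wild type mice. On wild type arrays 1 and 2 the signal was under that of the brightest negative control probe, at 0.866 and 0.954 of it.

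*Crem* probe C gave scaled levels of -3.21, -4.09 and -2.90 for *Khsrp*-/- replicates 1 to 3 and of -6.56, -5.96 and -4.74 for wild type replicates 1 to 3. The genotypes did not overlap, and both were spread widely. The difference was 2.36 with a standard error of 0.50, from means of -3.40 ± 0.62 and -5.76 ± 0.93 (SD, n = 3 each). Probe C passed the filter on dim probes through the *Khsrp*-/- arrays, and the size of its difference rests on very dim wild type signals of 5.15, 7.96 and 15.8, of which only that on array 3 was well above background, against 49.95, 20.6 and 45.9 on *Khsrp*-/- arrays that were all well above it. On wild type arrays 1 and 2 the signal was under even the third brightest of the negative control probes, and the spot error over the 6 arrays ran from 10.97% to 61.8%. The signal on *Khsrp*-/- array 2 was dim too, at 0.937 of the local background with a spot error of 21.7%. It was 1.12-fold that of the brightest negative control probe. The difference was 1.54 on the shared slide and 2.76 between the remaining arrays, and 0.66 after normexp correction.

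**Figure D1:**
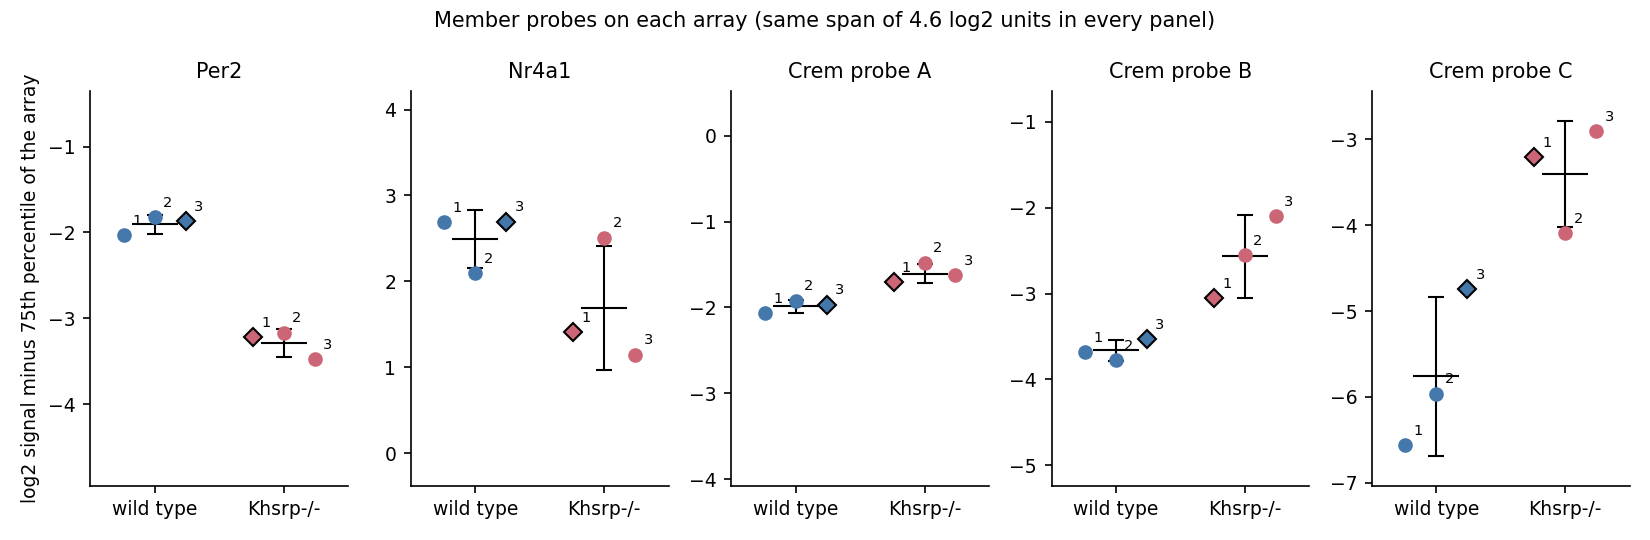
Scaled log2 level (log2 signal minus the 75th percentile of the array) of the *Per2*, *Nr4a1* and 3 *Crem* probes on each of the 6 arrays, by genotype; numbers are replicates, diamonds with a black edge are the arrays that share a slide, and lines with bars are means ± SD (n = 3). *Per2* was lower on every *Khsrp*-/- array by at least 1.14, *Nr4a1* overlapped through *Khsrp*-/- array 2, and the *Crem* probes were higher on every *Khsrp*-/- array.

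**Figure D2:**
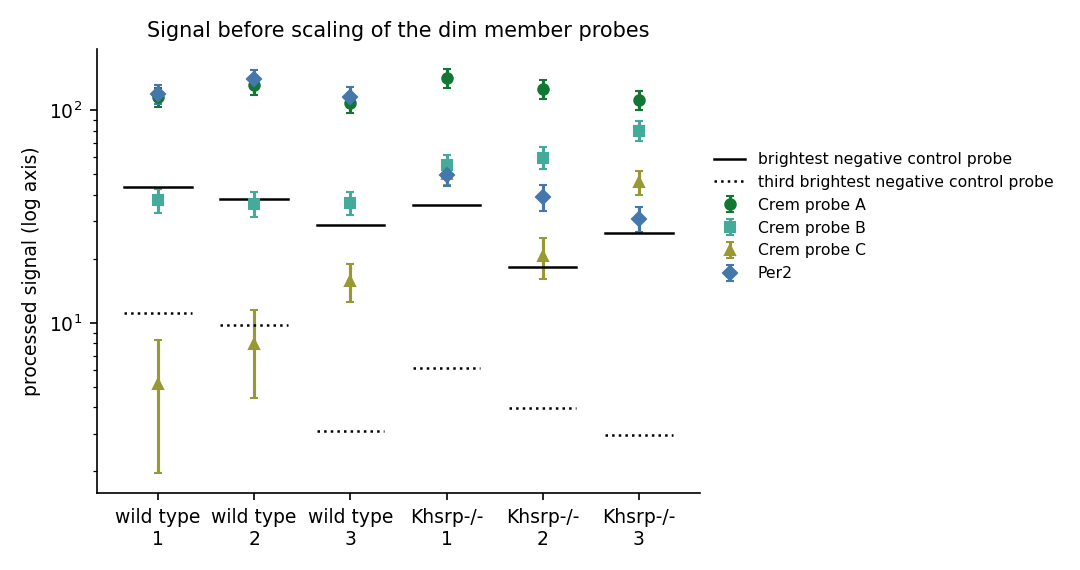
Processed signal before scaling (log axis) of the *Crem* probes and *Per2* on each array, with the scanner software's error of the signal as bars; solid lines are the brightest and dotted lines the third brightest of 15 negative control probes on that array. *Crem* probe C lay under the dotted line on wild type arrays 1 and 2, at signals of 5.15 and 7.96.

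The 3 *Crem* probes did not vary closely alike among arrays of the same genotype. Deviations from the genotype means correlated over the 6 arrays with r = 0.28 between probes A and B, -0.15 between A and C and 0.27 between B and C. None of the 3 values was high, which is a description of 6 arrays that share scaling and slides. Probe C was not well above background on wild type arrays 1 and 2, with spot errors of 61.8% and 44.1%. Its low r values therefore cannot be read as a difference between the probes. The change of probe A minus that of B was -0.71 on the log2 scale, and with normexp the changes of A, B and C were 0.34, 0.63 and 0.66. In the higher part of the supplementary table, which held 1522 probes, the folds computed here from the authors' normalized values were 1.31, 2.12 and 4.89 for probes A, B and C. Probe A was in the lower range of the probes listed, at rank 248 from the lowest, probe B was at rank 1371 and probe C near the top, at rank 1504.

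Over all 48438 probes, 4484 were higher in *Khsrp*-/- neocortex, or 9.26%, at an unadjusted p under 0.05 (limma) and a log2 change of at least 0.32 in size, and 3405 were lower, or 7.03%. By this rule the 3 *Crem* probes were called higher and *Per2* lower, while *Nr4a1* did not pass. The study's figure legend names these limits with no adjustment of the p and its methods name an adjusted p, and since the members were selected on this contrast nothing is read from that count. Of 48364 probes measured on all arrays, 12.4% had every *Khsrp*-/- array above every wild type array and 9.9% had every one below. Of the 5 member probes, 4 showed such a separation, with *Nr4a1* the exception. Without scaling the shares were 4.2% above and 19.1% below, and again 4 of 5 member probes separated, now with *Crem* probe A as the exception.

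The direction of each member held under every alternative processing that could move its value. Quantile normalization, a shift by the median, a percentile over bright probes and the authors' own normalized values gave changes of -1.41 to -1.38 for *Per2*, -0.84 to -0.80 for *Nr4a1*, 0.35 to 0.39 for *Crem* probe A, 1.06 to 1.097 for probe B and 2.29 to 2.36 for probe C. Larger shifts came with no scaling, with normexp and with the slide as a fixed block.

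**Figure D3:**
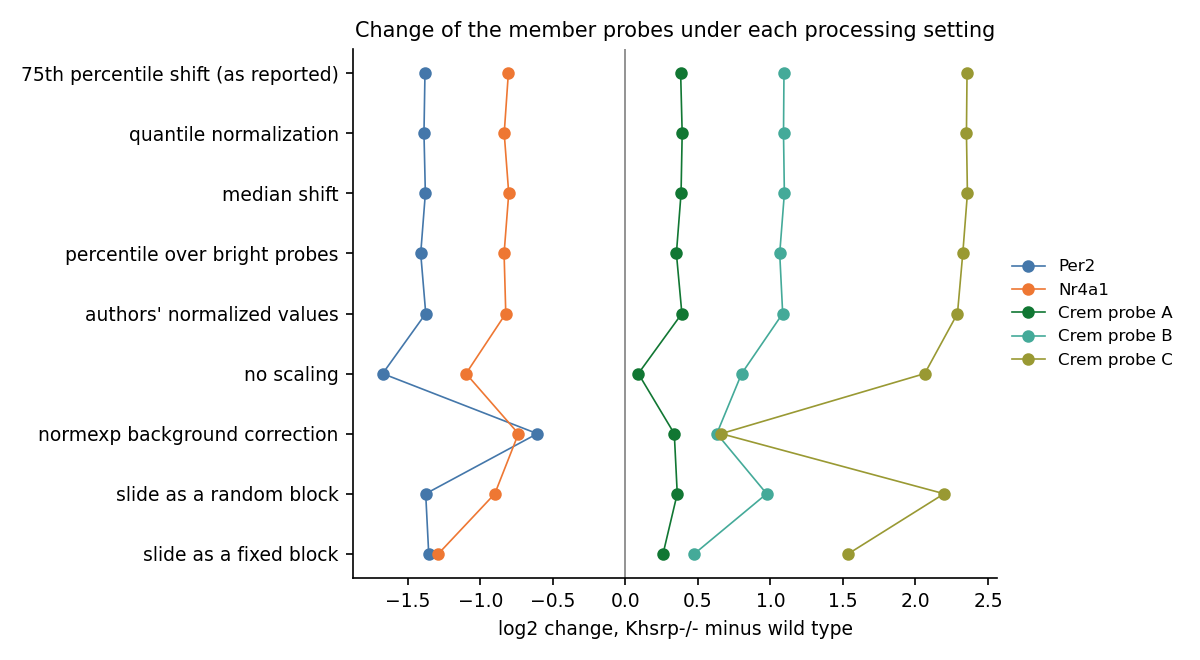
Log2 change (*Khsrp*-/- minus wild type) of each member probe under 9 processing settings, listed on the vertical axis, with 1 colour for each probe. Every point kept its side of 0; *Crem* probe C moved from 2.36 to 0.66 with normexp, and *Nr4a1* from -0.81 to -1.29 with the slide as a fixed block.

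Most of the clock could not be followed beside *Per2*. Of 27 symbols of clock genes, with *Bmal1* under both of its names, 25 had no named probe, among them *Per1*, *Cry1*, *Bmal1* and *Dbp*. These genes were not analysed here, so that no statement on the clock as a whole can be made from the *Per2* values.

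Of 36 genes of CREB signalling, 10 had named probes, 13 in all counting those of *Crem*. Of these probes 9 were higher and 4 lower in *Khsrp*-/- neocortex, with a median change of 0.41 against -0.0006 over all probes fitted. All 13 separated the genotypes with scaling and 9 did without it. *Crem* probe C among them passed the filter on dim probes through the *Khsrp*-/- arrays. Of the probes measured on all arrays, 12.4% separated upward and 9.9% downward with scaling, against 4.2% and 19.1% without it. The lower ones were kinases of the calcium and MAP kinase branches. *Camk1g*, a calmodulin-dependent kinase, differed by -1.09 (SE 0.16), *Camkk1*, the kinase that activates CaMKI and CaMKIV, by -0.80 (SE 0.18), and *Camk2a*, the main CaMKII subunit of excitatory forebrain neurons, by -0.86 (SE 0.19). *Rps6ka4*, which encodes the CREB kinase MSK2, differed by -1.07 (SE 0.44), with *Khsrp*-/- arrays spread from -4.42 to -2.56. That change was -0.54 without *Khsrp*-/- array 3, where the signal was 0.801 of the local background, -0.49 with the slide as a fixed block and -0.32 with normexp.

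The higher ones beside *Crem* came from several steps of the pathway. Both probes of *Camk2d*, another CaMKII subunit, were higher, by 0.97 (SE 0.23) and 0.85 (SE 0.21). *Camk4*, the nuclear kinase that phosphorylates CREB, was higher by 0.41 (SE 0.17), and *Sik3*, which holds the CREB coactivators in the cytoplasm, by 0.41 (SE 0.16). *Crebzf*, a bZIP protein, was higher by 0.68 (SE 0.18) and *Ppp3r2*, a regulatory subunit of calcineurin, by 0.90 (SE 0.21). For *Camk4*, *Sik3* and *Crebzf*, as for *Crem* probe A, the genotypes overlapped once the scaling was left out, with changes of 0.12, 0.12 and 0.39. With the slide as a fixed block the *Camk2d* probes were at 0.51 and 0.38, *Camk4* at 0.29 and *Sik3* at 0.15. In that fit *Crebzf* and *Ppp3r2* stayed at 0.75 and 0.88. These symbols come from the same selected table, so the counts say which listed genes were in it and no more.

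**Figure D4:**
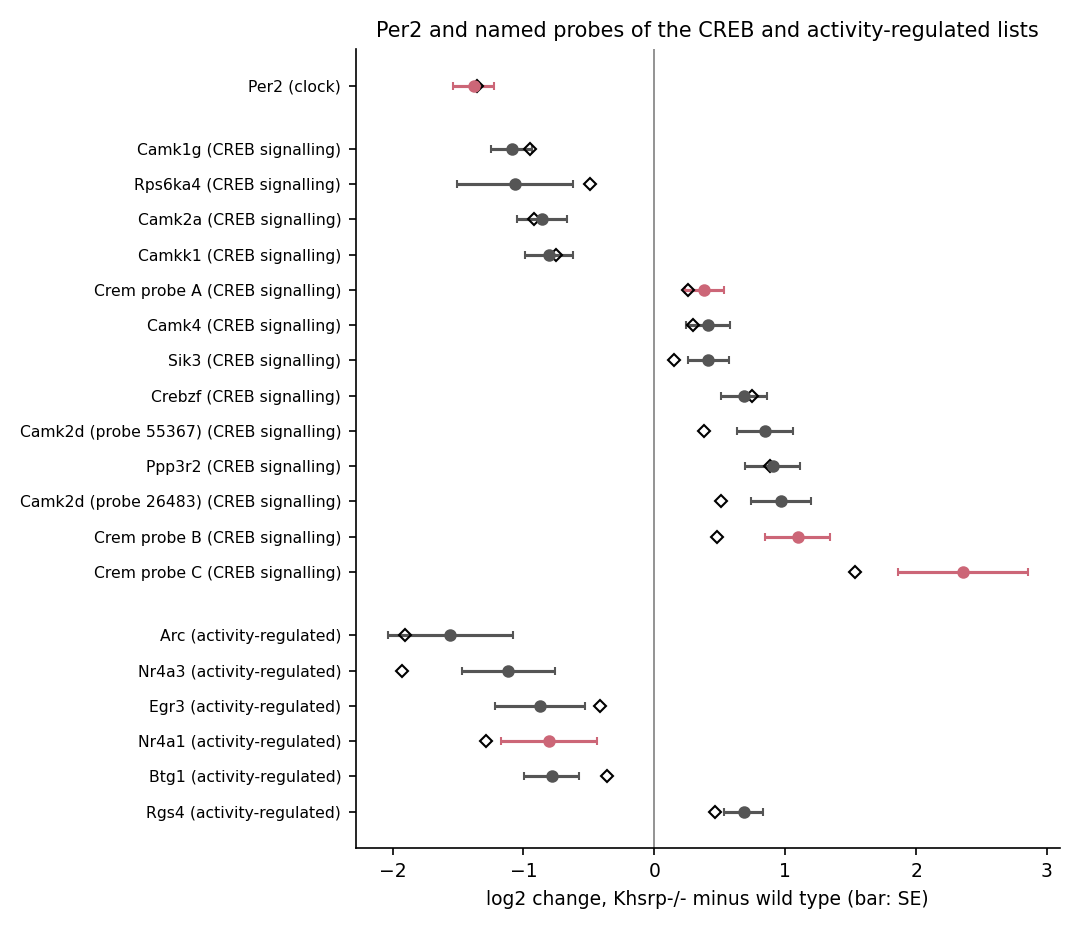
Log2 change (*Khsrp*-/- minus wild type, points) with its standard error (bars) for *Per2* and the named probes of the CREB signalling and activity-regulated lists, members in red; open diamonds are the difference on the shared slide, *Khsrp*-/- array 1 minus wild type array 3. *Per2* and its diamond nearly coincide at -1.38 and -1.35, while the diamonds of *Crem* probes B and C lie closer to 0, at 0.48 and 1.54.

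Of 39 activity-regulated genes, 6 had a named probe, and 5 of these 6, *Nr4a1* included, had lower means in *Khsrp*-/- neocortex. Their median change was -0.84, and 4 were called lower and 1 higher by the unadjusted rule, by which 7.03% and 9.26% of all probes were called. These symbols too come from the table selected on this contrast, and nothing is read from the counts or the median. *Arc*, whose product acts at synapses in plasticity, gave 1.23, 2.73 and 0.79 for *Khsrp*-/- replicates 1 to 3 and 3.48, 2.81 and 3.14 for wild type replicates 1 to 3. All *Khsrp*-/- arrays lay below all wild type arrays, though array 2 by only 0.08, and the difference was -1.56 (SE 0.48). *Nr4a3*, which encodes the nuclear receptor NOR1, gave -4.55, -3.31 and -4.41 against -2.98, -3.32 and -2.62, and *Khsrp*-/- array 2 again reached the wild type range, for a difference of -1.12 (SE 0.36). This probe was dim: its signals of 19.7 and 16.1 on *Khsrp*-/- arrays 1 and 3 were under the 35.7 and 26.4 of the brightest negative control probe, and its change was -0.22 with normexp and -1.93 with the slide as a fixed block. *Egr3*, a zinc finger immediate early factor, gave -2.42, -1.74 and -2.86 against -1.24, -1.16 and -2.01, and *Khsrp*-/- array 2 overlapped wild type array 3, for a difference of -0.87 (SE 0.34). That change was -0.41 with the slide as a fixed block and -0.51 with normexp. On *Khsrp*-/- array 3 the *Egr3* signal was 2.25 times the local background.

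*Btg1*, an antiproliferative gene, and *Rgs4*, a regulator of G protein signalling, did not share the high value of *Khsrp*-/- array 2. *Btg1* gave 2.86, 2.75 and 2.21 for *Khsrp*-/- replicates 1 to 3 and 3.42, 3.52 and 3.23 for wild type replicates 1 to 3, a difference of -0.78 (SE 0.21). *Rgs4* was the higher gene of the list, with 2.60, 2.86 and 2.89 against 2.07, 2.10 and 2.14, a difference of 0.68 (SE 0.15). With the slide as a fixed block *Btg1* was at -0.36 and *Rgs4* at 0.46. With scaling, 3 of the 6 separated the genotypes, namely *Arc*, *Btg1* and *Rgs4*, and without it all 6 did. Over all probes the shares were 12.4% above and 9.9% below with scaling, and 4.2% and 19.1% without it. The 5 lower probes come from entries with ratios of unscaled mean signals of at most 0.499. That selection favours separation without scaling, so nothing is read from these counts.

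Deviations from the genotype means do not use the contrast that chose the genes, and in these *Nr4a1* followed *Arc* and *Nr4a3*. Over the 6 arrays r was 0.97 between *Nr4a1* and *Arc*, 0.94 between *Nr4a1* and *Nr4a3* and 0.87 between *Arc* and *Nr4a3*. Among 1665 named probes well above background on all arrays, *Arc* ranked 11th in likeness to *Nr4a1* and *Nr4a3* 19th, and 38 probes, or 2.28%, had r over 0.9. *Egr3* was less like *Nr4a1*, with r = 0.52 and rank 248: it shared the high value of *Khsrp*-/- array 2 but not the low value of wild type array 2. The 3 probes most like *Nr4a1* were those of *Gfm2* (r = 0.99), *Htr5b* (r = 0.99) and *Birc5* (r = 0.98). These coefficients rest on 6 arrays that share scaling and slides, with *Khsrp*-/- array 2 the highest of its genotype for *Nr4a1*, *Arc*, *Nr4a3* and *Egr3*, and are given without a p.

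*Khsrp*-/- array 2 was also the highest of its genotype for some of the named cell type markers. *Drd1*, the dopamine receptor of striatal projection neurons, had scaled levels of 3.28, 4.75 and 3.56 for *Khsrp*-/- replicates 1 to 3 and of 2.68, 2.52 and 2.82 for wild type replicates 1 to 3, and its deviations correlated with those of *Nr4a1* at r = 0.90, rank 36. It was the only striatal marker of 5 with a named probe, so a summed level of that list cannot be given, and its part in the *Nr4a1* values was not tested. Over all cell types 6 of 40 markers were named, none of them for oligodendrocytes, microglia, endothelium, choroid plexus or blood. The neuronal markers *Camk2a* and *Snap25* ran from 4.72 to 5.98 and from 4.97 to 5.99 over the 6 arrays. They went opposite ways, with *Snap25* higher by 0.55 (SE 0.20), as were *Calb1* of inhibitory neurons by 0.52 (SE 0.19), the astrocyte transporter *Slc1a2* by 0.48 (SE 0.18) and *Fabp7* of astroglia by 0.88 (SE 0.26). On the shared slide these differences were smaller, at 0.33 for *Snap25*, 0.02 for *Calb1*, 0.15 for *Slc1a2* and 0.11 for *Fabp7*. Without scaling they were 0.26, 0.23, 0.19 and 0.59, and the genotypes overlapped for *Snap25* and *Slc1a2*. *Khsrp*-/- array 2 read 4.42 against 3.58 and 4.02 for *Fabp7* and 4.26 against 3.77 and 4.15 for *Calb1*. For *Camk2a* it read 5.20 against 4.80 and 4.72, while for *Snap25* and *Slc1a2* array 3 was the highest. Deviations of *Per2* correlated with those of *Drd1* at only r = 0.37.

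**Figure D5:**
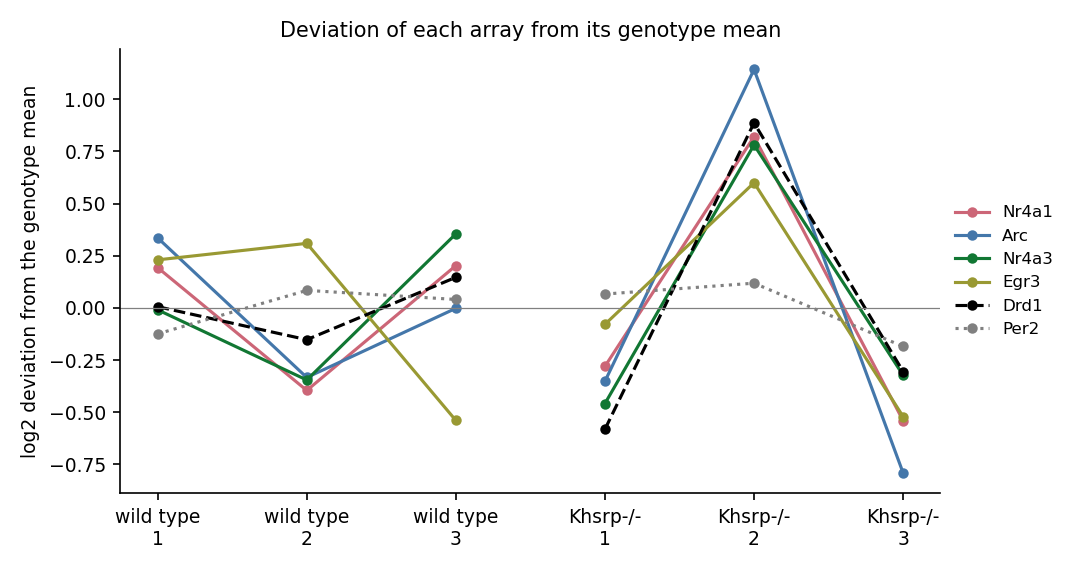
Deviation of the scaled log2 level from the genotype mean on each array for *Nr4a1*, *Arc*, *Nr4a3*, *Egr3*, *Drd1* (dashed) and *Per2* (dotted); lines join the arrays of a genotype only to guide the eye, since replicates have no order. *Khsrp*-/- array 2 was the highest of its genotype for every gene shown, with the scaled *Nr4a1* level at 2.51 against 1.41 and 1.15, while *Per2* stayed near 0.

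The within-genotype pattern of *Per2* was most like those of *Cdv3* (r = 0.99), *Abhd2* (r = 0.96) and *Sema4g* (r = 0.93), and 8 of 1665 named probes, or 0.48%, had r over 0.9. *Per2* varied little between arrays of a genotype, and its likeness to *Arc* was r = 0.45. *Crem* probe A was most like *Elovl7*, *Chml* and *Gpr179*, at r = 0.99 each, and 20 of 1664 named probes, or 1.202%, had r over 0.9. *Crem* probe C was most like *A2m* (r = 0.99), *Sema3g* (r = 0.99) and *Ccdc108* (r = 0.98), with 29 probes, or 1.74%, over 0.9. Unlike the probes it was set against, probe C was not well above background on wild type arrays 1 and 2. Its companions thus rest partly on signals near background.

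*Crem* probe B had by far the most companions of the 5 members. Its deviations correlated over 0.9 with 269 of 1664 named probes, or 16.2%, led by *Cntn4* (r = 0.998), *Fbxo33* (r = 0.997) and *Blmh* (r = 0.997). The median r over all named probes was 0.62 for probe B, against 0.29 for probe A, 0.19 for probe C, 0.02 for *Nr4a1* and -0.25 for *Per2*. Among the 5 member probes, then, probe B varied most like the named probes at large. Its own *Khsrp*-/- levels were lowest on array 1, on the shared slide, and highest on array 3.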

How the data were processed

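Neocortex RNA in 3 *Khsrp*-/- and 3 wild type samples was depleted of rRNA, labelled with Cy3 and hybridized to an Agilent mouse lncRNA array. The authors deposited scanner output made with Agilent Feature Extraction 11.0.1.1, whose processed signal is an intensity with background subtracted and no scaling between arrays, with the median spot and background intensity and marks of 0 or 1 for spots well above background, saturated or outlying. A further deposited table holds their normalized log2 values, which set against the scanner values gave correlations of 0.997 to 1.000 and medians of 6.51; the name of their normalization is not given in the sources used here, and the submitters' processing notes name limma.

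Of 62939 spots per array, control spots, 300 negative control spots and 47 to 64 outlier spots were left out, and none was saturated. Between 71.3% of spots, on *Khsrp*-/- array 2, and 82.6%, on *Khsrp*-/- array 1, were well above background. The log2 signal was averaged over spots of a probe and each array's 75th percentile subtracted. The genotypes were fitted with limma 3.58.1 (lmFit and eBayes, R 4.3.3; prior degrees of freedom 3.19, median residual SD 0.245), after the fit was tested on simulated data; after Benjamini-Hochberg adjustment 40 probes were higher and 6 lower. The number of arrays limits the precision, and since the labels do not say whether each sample came from its own mouse, p-values and SDs measure only the spread between these samples.

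Probes in the higher part of the supplementary table were named by probe ID, and 266 entries of the lower part by matching their 6 raw values to 1 probe each within a relative difference of 2e-05, after a floor of 5. The table's fold changes and p-values are the authors' and were not used. The members and gene lists were chosen with earlier results of these data known. The genes named are all probes of the members, the named genes of the clock, CREB, activity and cell type lists (1 result is not reported here), and the 3 named genes with the highest within-genotype Pearson r for each member probe.

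Alternatives were other scalings, none, normexp (on the median spot intensity, as no mean was in the files), the authors' log2 values, 2 other filters, a floor of 5, each array left out, replicate number or slide as a block (statmod 1.5.0), eBayes with trend and robust variances, and a plain test per probe. Tables used pandas 2.3.3 and figures matplotlib 3.10.9.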

Additional observations from a re-analysis of the deposited data

How the results depend on the processing

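Over 75 values of the 5 member probes under alternatives that can move a probe's change, 75 kept the direction and 8 moved by more than the spread between arrays. Without scaling *Per2* was at -1.67 and *Crem* probe A at 0.090. With normexp *Per2* was at -0.61, probe B at 0.63 and probe C at 0.66. With the slide as a fixed block, which leaves only the pair of arrays on the shared slide to compare, probe A was at 0.26, probe B at 0.48 and probe C at 1.54. With 1 array left out, the changes ran from -1.44 to -1.29 for *Per2*, -1.22 to -0.54 for *Nr4a1*, 0.32 to 0.43 for probe A, 0.86 to 1.34 for probe B and 1.95 to 2.86 for probe C. Probe C gave no value under the filter for probes well above background on all arrays. The 240 such values of the other list probes kept their direction too, with 21 moved.

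Deviations of same-numbered arrays correlated at -0.31, 0.10 and -0.31. Slides ran across the replicate numbers, so these values cannot settle whether the samples were paired by number. A fit with the replicate block cannot move a change, *Per2* at -1.38 included, with 1 array of each genotype per number. It moved the SE of *Per2* from 0.16 to 0.19 and that of *Nr4a1* from 0.37 to 0.42, and gave 3538 probes higher and 2673 lower, against 4484 and 3405.

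The whole-array counts depended more on the settings. Without scaling 1221 probes were higher and 7286 lower, and 2029 and 9243 probes had all *Khsrp*-/- arrays above and below. The slide as a fixed block gave 1754 higher and 1091 lower, as a random block 2214 lower, and the plain test 1817 lower. With 1 array left out, 2520 to 6641 were higher and 1495 to 6409 lower, both highest without *Khsrp*-/- array 1 and lowest without wild type array 1. Without *Khsrp*-/- array 3 they were 2823 and 1966, and without wild type array 2 2752 and 1656. After Benjamini-Hochberg adjustment the counts of 40 higher and 6 lower became 736 and 1310 without *Khsrp*-/- array 1, 6 and 0 without wild type array 2, 1 and 0 with the replicate block and 0 and 0 with the slide as a fixed block, where 1754 and 1091 passed unadjusted. The cause was not tested. Low signal over background limits *Per2*, *Crem* probes B and C, *Nr4a3*, *Egr3* and *Rps6ka4*.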
